A study of Mus musculus with 37 samples.

Results

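Macrophages that had been kept for 7 days with fibroblasts of fat were compared with macrophages kept for 7 days with fibroblasts of lung. The comparison rests on 8 of the 37 libraries of the study, 4 with fat partners and 4 with lung partners, taken by their labels. In the study, bulk 3′ end RNA sequencing was applied to macrophages and fibroblasts that were grown alone or together, with fibroblasts from fat, lung and the mammary fat pad. All cells came from BALB/c mice aged 8 weeks. In both groups the macrophages were differentiated from bone marrow of females in medium with 20% L929 conditioned medium, a source of the macrophage growth factor CSF1. They were reseeded after 7 days onto collagen I with fibroblasts, in DMEM with 10% serum and without further L929 medium, per the labels' protocols. No gene was altered and no drug was given in either group, so the organ of the partner fibroblasts is the labelled difference. Fat fibroblasts came from mesometrial fat, the fat beside the uterus, of 2 females per replicate, and the number of mice behind each lung replicate is not given in the labels. The fibroblasts of both organs had been expanded for 7 days and depleted of cells carrying CD45, a leukocyte protein, or EpCAM, an epithelial protein. Macrophages were then sorted as live cells positive for F4/80 and CD11b, up to 10000 per library. They are therefore bone marrow cells exposed to organ fibroblasts in a dish, and not resident macrophages of fat or lung. Macrophages at day 0 of co-culture (4 libraries) and macrophages kept 7 days with mammary fibroblasts (4 libraries) are given beside the 2 groups for some genes. The labels call the libraries of a group repetitions and do not say which came from separate cultures or animals, so the p-values reflect how much these libraries vary, part of which may be technical.

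Macrophages take on features of the tissue in which they live through signals from neighbouring stromal cells. TGF-beta, a growth factor held in latent form by matrix and cell-surface integrins, acts through the receptors TGFBR1 and TGFBR2 and SMAD proteins, and maintains the gene programme of microglia, the macrophages of the brain. CX3CR1, the receptor of the membrane-bound chemokine fractalkine, and OLFML3 are widely used markers of microglia. Macrophages along vessels and in connective tissue carry instead the mannose receptor MRC1 and the lectin CLEC10A, and mouse macrophages of that kind often express the chemokine CCL8.

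A small share of genes passed the test between macrophages with fat and with lung partners, and some of these genes differed strongly. Of 10295 genes tested, 319 (3.1%) were called, meaning an adjusted p under 0.05 in edgeR's quasi-likelihood test with Benjamini-Hochberg adjustment over all genes tested. With fat partners 212 genes were higher (2.06%) and with lung partners 107 (1.04%). The difference was at least 2-fold for 122 and 45 of these and at least 4-fold for 29 and 13. The median log2 difference (fat minus lung, as throughout) over all genes tested was 0.00. Of the called genes, 64 higher with fat and 14 higher with lung were fibroblast-rich, defined as a mean level in co-cultured fat or lung fibroblasts above 5 times the mean over the 8 macrophage libraries. For 993 of the genes tested (9.65%) the 4 fat and 4 lung libraries did not overlap in level, and 312 of these were called. Levels are CPM, counts rescaled by TMM to a common library of 1000000, and since reads come from transcript 3′ ends they are compared between libraries and not between genes. In bulk samples fewer cells that carry a gene and less of its RNA per cell cannot be told apart. Without fat library 3 the number of genes higher with lung was 69, and in the other fits without 1 library the totals did not change by over 1.5 times.

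**Figure D1:**
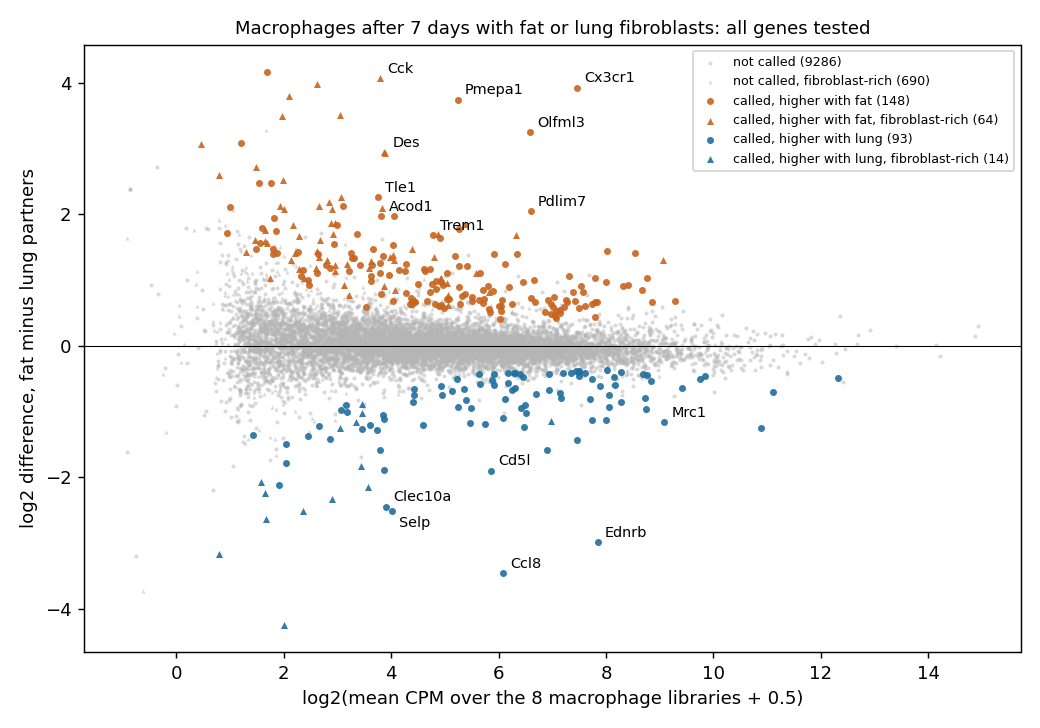
Each point is one of the 10295 genes tested, by its level (log2 of mean CPM over the 8 libraries plus 0.5) and its log2 difference between macrophages with fat and with lung partners. Called genes higher with fat (orange) and lung (blue) are drawn larger, with fibroblast-rich genes as triangles. Cx3cr1, Pmepa1 and Olfml3 stand apart above and Ccl8 and Ednrb below.

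Library totals ran from 3389712 to 6080762 counts, at which 3 counts correspond to 0.504 to 0.887 CPM, for counting error only. The 16 macrophage markers summed to 60509 to 69017 CPM with fat and 57839 to 62107 CPM with lung partners, and 0 of the 16 were called by edgeR or DESeq2, with 3 under an unadjusted p of 0.05. Of the sort markers, Adgre1, which encodes F4/80, differed by 0.20 ± 0.15 (adjusted p = 0.722) and Itgam, which encodes CD11b, by 0.01 ± 0.11 (adjusted p = 0.991). Fibroblast markers (12 of 14 in the table) summed to 106 to 218 CPM with fat and 70.3 to 148 CPM with lung partners, against 4.98 to 12.8 CPM at day 0. The fibroblast share of the RNA, estimated from their rise over day 0 relative to the co-cultured fibroblasts, was 1.21% ± 0.332 with fat and 0.659% ± 0.249 with lung partners (SD, n = 4 each). Monocyte genes (6 of 8 in the table) summed to 582 to 1072 CPM with fat and 217 to 404 CPM with lung partners, and 1 of the 3 tested was called. That gene was Fn1, a fibroblast-rich matrix gene, which made up most of the sum at 762 ± 219 CPM with fat and 306 ± 74.6 CPM with lung partners (SD, n = 4 each). The monocyte chemokine receptor gene Ccr2, at 21.9 ± 9.69 and 12.04 ± 4.14 CPM, was not called (adjusted p = 0.206). Neutrophil genes (2 of 11 in the table) summed to 17.0 to 29.1 CPM and 7.23 to 11.5 CPM, against 32.4 to 50.5 CPM at day 0. Endothelial genes (4 of 10 in the table) had 0 called members by edgeR and DESeq2 and 0 under an unadjusted p of 0.05. Of the 8 adipocyte and 7 erythroid markers 0 are in the macrophage table, so their levels could not be compared. The part of these marker differences in the results that follow was not tested. Fat library 2 and lung library 1 stood apart from the rest of their groups on the first 2 principal components, and without both of them 227 genes were called, 152 higher with fat and 75 higher with lung.

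**Figure D2:**
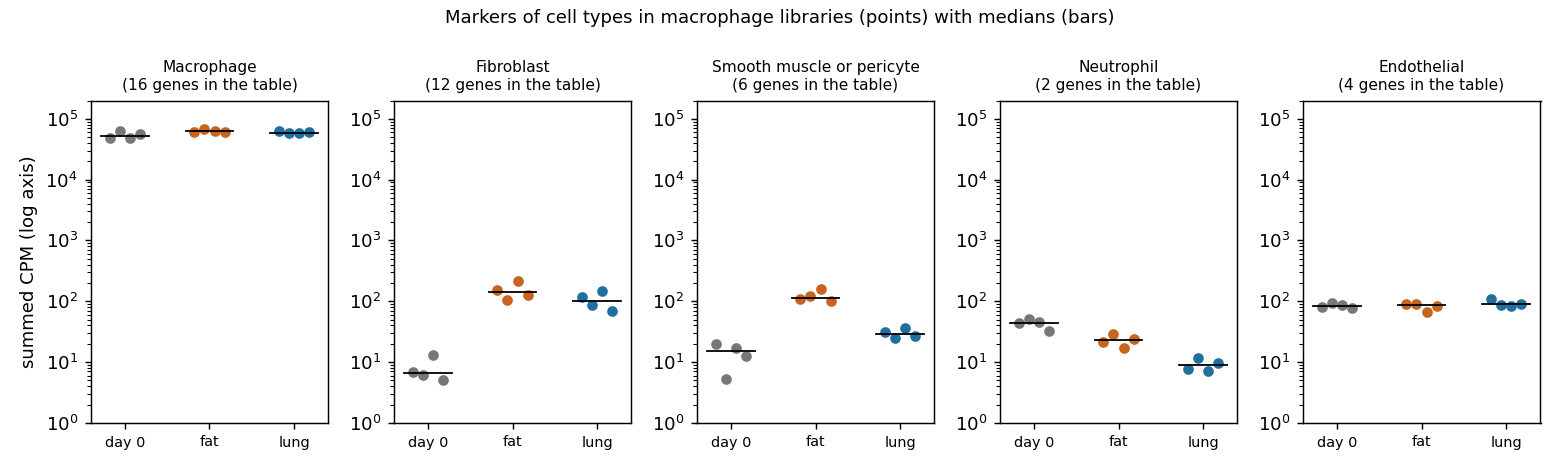
Summed CPM of marker genes in each macrophage library (points, log axis) at day 0 and after 7 days with fat or lung fibroblasts, with group medians (bars). Macrophage markers are at like levels in the 3 groups, fibroblast markers are above day 0 in both co-cultures, and smooth muscle markers are higher with fat than with lung in every library.

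Among genes that were not fibroblast-rich and reached 20 CPM in the higher group, those that differed most in favour of fat partners were Cx3cr1, Pmepa1 and Olfml3, each linked to TGF-beta or to microglia. Cx3cr1 (chromosome 9, 119901616 to 120069879 of the mouse build GRCm38, minus strand, protein-coding) stood at 246, 312, 386 and 370.3 CPM in fat libraries 1 to 4 and at 18.1, 21.6, 26.4 and 20.2 CPM in lung libraries 1 to 4. Every fat library was far above every lung library, and the day-0 mean of 76.98 CPM lay between the groups. The log2 difference was 3.93 ± 0.19 (SE; adjusted p = 8.91e-11), a 15.2-fold ratio of means. With mammary partners the mean was 213 CPM. Pmepa1 (chromosome 2, 173224458 to 173276533), a membrane protein gene induced by TGF-beta whose product holds back SMAD signalling, stood at 66.8, 73.2, 71.99 and 65.97 CPM in fat libraries 1 to 4 and at 4.31, 3.55, 5.88 and 6.39 CPM in lung libraries 1 to 4. The fat libraries lay close together and far above the lung libraries, which were themselves above the day-0 mean of 1.11 CPM. The difference was 3.75 ± 0.23 (adjusted p = 3.98e-09). Olfml3 (chromosome 3, 103722222 to 103738001), which encodes a secreted olfactomedin-domain protein, stood at 155, 158, 179.8 and 204 CPM in fat libraries 1 to 4 and at 15.2, 17.4, 17.9 and 22.02 CPM in lung libraries 1 to 4. The groups did not overlap, and the lung libraries were all under the day-0 mean of 26.02 CPM. The difference was 3.25 ± 0.18 (adjusted p = 3.90e-10). With mammary partners the mean of Pmepa1 was 59.4 CPM and that of Olfml3 147 CPM, both nearer to the fat than to the lung level. Co-cultured fat fibroblasts held Pmepa1 at a mean of 64.4 CPM and Olfml3 at 234 CPM in their own libraries. With the estimated share of fibroblast RNA subtracted, the differences were 3.82 and 3.30.

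**Figure D3:**
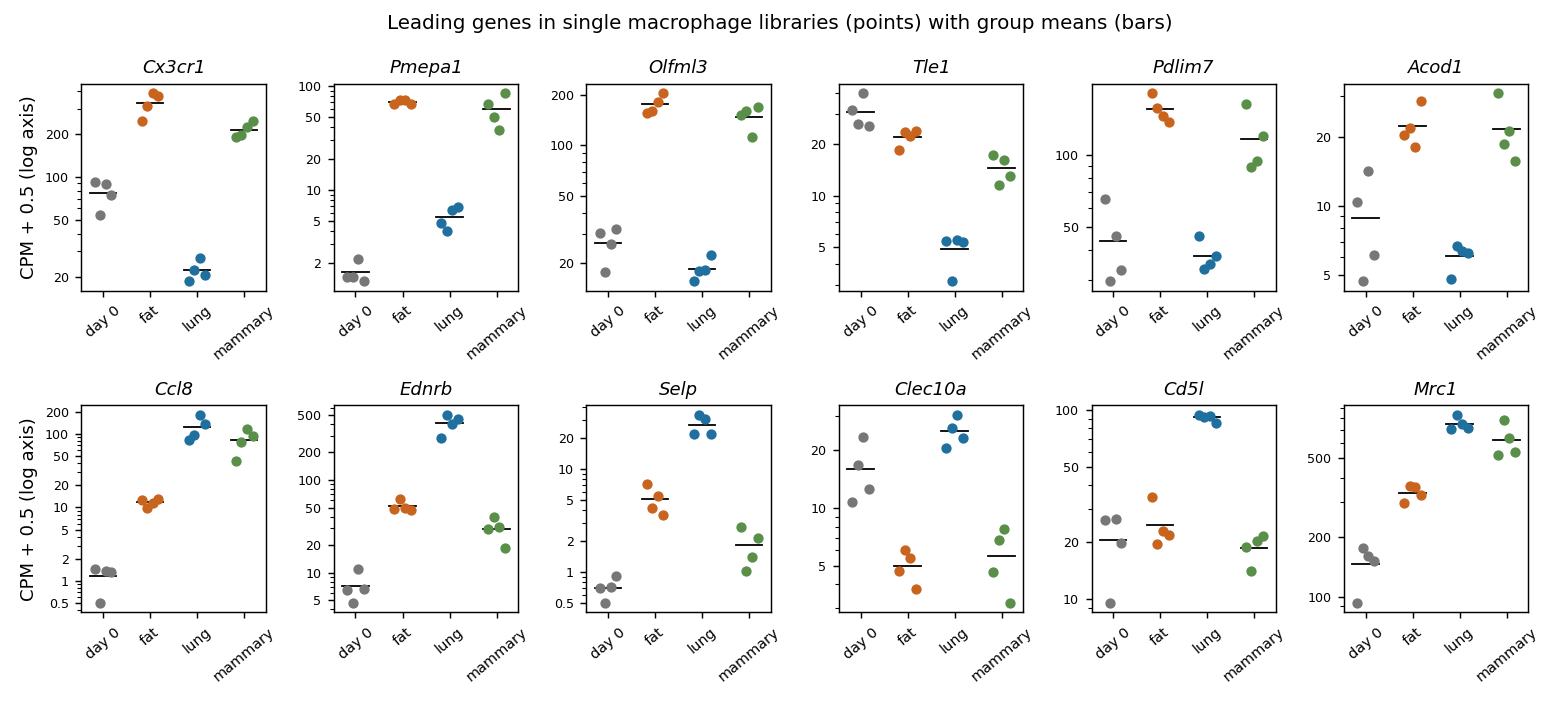
CPM plus 0.5 (log axis) of 12 leading genes in each macrophage library (points) at day 0 and after 7 days with fat, lung or mammary fibroblasts, with group means (bars). In the upper row every fat library lies above every lung library, and in the lower row every lung library lies above every fat library.

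Of 25 tested genes of the TGF-beta response and of the microglia programme, 11 were higher with fat and 1 was higher with lung partners. Their median log2 difference was 0.78, against 0.00 over all genes tested, and 22 of the 25 were positive. Over all genes tested 2.06% were higher with fat and 1.04% with lung. This list and those below were chosen with earlier results of these data known, and this list holds Cx3cr1, Olfml3 and Pmepa1. The counts and medians of lists therefore describe their members and are no independent support for a programme. Among the receptors, Tgfbr1, the signalling type I receptor of TGF-beta, stood at 273 ± 28.3 CPM with fat and 171 ± 20.3 CPM with lung (SD, n = 4 each; log2 difference 0.67 ± 0.13, adjusted p = 0.00462). Tgfbr2, the ligand-binding type II receptor, was not called, at -0.08 ± 0.13 (adjusted p = 0.899). The integrin chains Itgav and Itgb5, which pair into a receptor that binds latent TGF-beta and vitronectin, were both higher with fat, by 1.10 ± 0.20 and 0.84 ± 0.15 (adjusted p = 0.00230 and 0.00248). Skil, whose product SnoN is a SMAD-binding co-repressor induced as feedback, stood at 26.7, 24.3, 21.2 and 22.9 CPM in fat libraries 1 to 4 and at 11.3, 12.7, 11.1 and 7.90 CPM in lung libraries 1 to 4. No lung library reached the lowest fat library, and the difference was 1.16 ± 0.16 (adjusted p = 0.000146). Smad7, the inhibitory SMAD, went the same way without passing the test, at 0.78 ± 0.23 (adjusted p = 0.0904, or 0.0217 without fat library 3 and 0.0237 without lung library 4), and Smad3, a signal carrier of the pathway, was at 0.08 ± 0.19 (adjusted p = 0.947). Tgfbi, which encodes a TGF-beta-induced matrix protein, was higher with fat by 0.68 ± 0.12 (adjusted p = 0.00201).

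Among the microglia genes of the same list, Tmem119, a surface marker of microglia that mesenchymal cells also express, was fibroblast-rich and higher with fat by 2.27 ± 0.25 (adjusted p = 1.09e-05). After subtraction of the fibroblast share its difference was 2.51 (adjusted p = 0.000174). The purinergic receptor gene P2ry12 was at 0.57 ± 0.16 (adjusted p = 0.0592, or 0.0323 without lung library 2) and Fcrls, an Fc receptor-like gene of mouse microglia, at 0.17 ± 0.19 (adjusted p = 0.832). The exception among the called genes was Gas6, a ligand of the TAM receptors for dying cells, which was higher with lung partners (log2 difference -0.70 ± 0.15, adjusted p = 0.0108, or 0.0751 without fat library 2 and lung library 1). In the 8 fits without 1 library, 10 to 12 members of the list were higher with fat, and 11 were without fat library 2 and lung library 1.

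**Figure D4:**
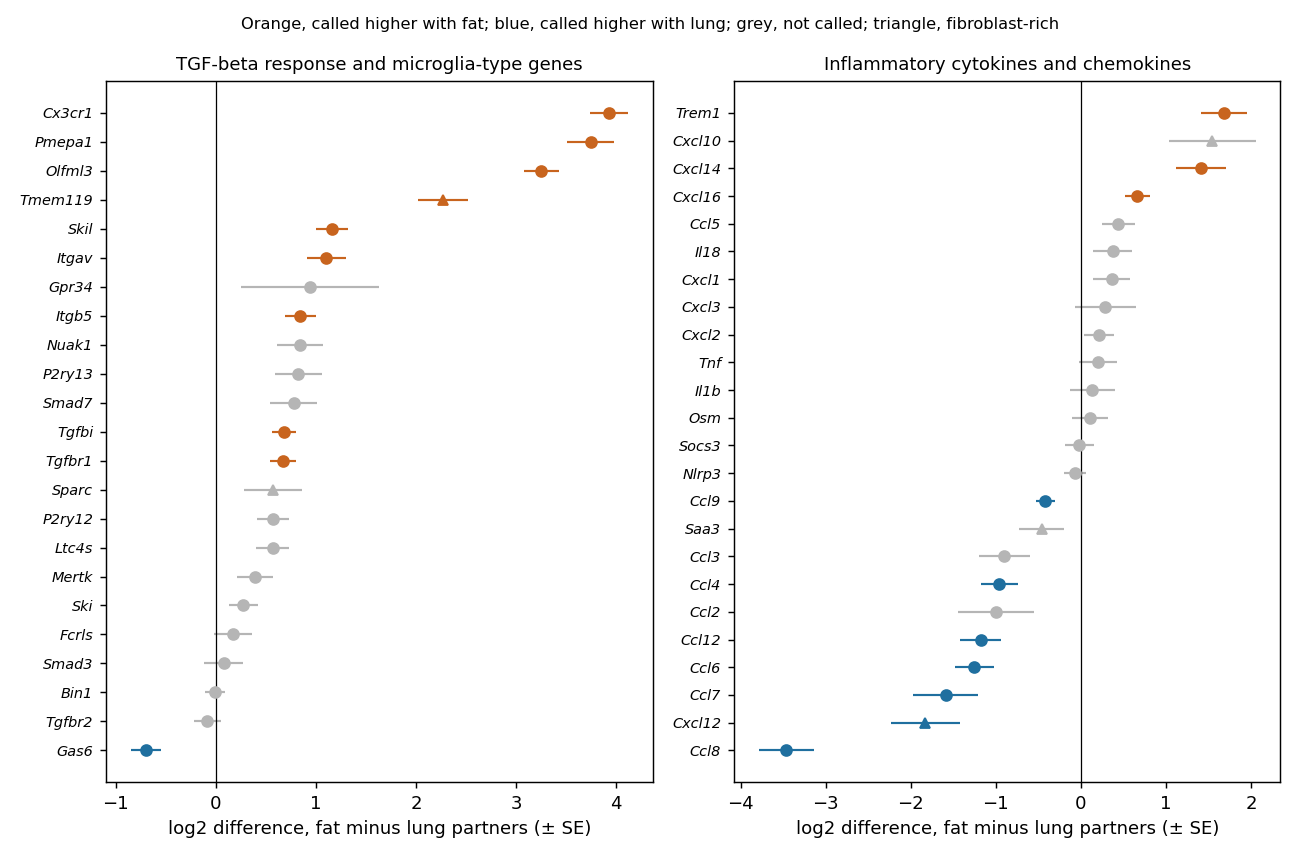
Log2 difference (fat minus lung partners, points) with its SE (bars) for tested genes of 2 lists, ordered by size, with some members of the left list not drawn. On the left most called TGF-beta and microglia-type genes are higher with fat (orange). On the right 7 of 24 inflammatory cytokine and chemokine genes are called higher with lung (blue) and 3 higher with fat.

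Among the other leading genes with fat partners were regulators of transcription, the cytoskeleton and innate immunity. Tle1 (chromosome 4, 72117142 to 72200919), a Groucho-family co-repressor, stood at 17.9, 23.2, 21.7 and 23.6 CPM in fat libraries 1 to 4 and at 4.93, 2.66, 4.97 and 4.87 CPM in lung libraries 1 to 4. The day-0 mean of 30.2 CPM was above all 8 libraries, the lung libraries were furthest below it, and the groups differed by 2.26 ± 0.21 (adjusted p = 1.67e-06). Pdlim7 (chromosome 13, 55495795 to 55513676), which encodes a PDZ-LIM protein of actin filaments, stood at 182, 157, 145 and 138 CPM in fat libraries 1 to 4 and at 45.2, 32.8, 34.3 and 37.5 CPM in lung libraries 1 to 4. The groups did not overlap, with a difference of 2.05 ± 0.23 (adjusted p = 3.06e-05) and a day-0 mean of 42.99 CPM near the lung level. Acod1, the enzyme that makes the antimicrobial metabolite itaconate, stood at 19.9, 21.3, 17.5 and 28.04 CPM in fat libraries 1 to 4 and at 4.31, 6.21, 5.88 and 5.71 CPM in lung libraries 1 to 4, a difference of 1.97 ± 0.30 (adjusted p = 0.000387). Trem1, a receptor that amplifies inflammatory signalling, stood at 44.5, 46.8, 33.99 and 40.3 CPM in fat libraries 1 to 4 and at 16.8, 8.28, 10.4 and 14.96 CPM in lung libraries 1 to 4. Its fat libraries were all above its lung libraries and both groups were above the day-0 mean of 1.25 CPM. Its difference was 1.69 ± 0.27 (adjusted p = 0.00100). Havcr2, which encodes the checkpoint receptor TIM-3, differed by 1.64 ± 0.26 (adjusted p = 0.000746), with group means of 44.9 ± 9.88 and 14.4 ± 1.71 CPM (SD, n = 4 each). Its day-0 mean of 35.1 CPM was close to the fat level.

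The rest of the 12 largest differences in this direction among abundant genes that were not fibroblast-rich lay between 1.45 and 1.98. They were Slco2b1, an organic anion transporter (1.98), Pald1, which encodes paladin (1.79), the long non-coding Bach2os (1.54) and Lsp1, an actin-binding protein of leukocytes (1.45). Their adjusted p-values were 0.000695, 6.18e-06, 0.000425 and 0.00274. Bach2os shares exon bases with Bach2 on the opposite strand, and since the use of strand in counting is not given, its reads cannot be told apart from those of Bach2. All 12 of these leading genes, from Cx3cr1 to Lsp1, were called in every one of the 8 fits without 1 library.

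With lung partners the endothelin receptor Ednrb and the chemokine Ccl8 led. Ednrb (chromosome 14, 103814625 to 103844402, minus strand), the type B receptor for the vasoactive endothelin peptides, stood at 48.5, 61.5, 49.1 and 46.9 CPM in fat libraries 1 to 4 and at 281, 504, 397 and 449 CPM in lung libraries 1 to 4. Lung library 1 was the lowest of its group and still several-fold above every fat library, and the day-0 mean was 6.74 CPM. The log2 difference was -2.99 ± 0.23 (adjusted p = 4.85e-07). With mammary partners the mean was 29.2 CPM, and co-cultured lung fibroblasts held the gene at 8.13 CPM in their own libraries. Ccl8 (chromosome 11, 82115185 to 82116799, plus strand), which encodes the monocyte-attracting chemokine MCP-2, stood at 12.03, 9.40, 11.1 and 12.5 CPM in fat libraries 1 to 4 and at 81.6, 95.2, 183 and 137 CPM in lung libraries 1 to 4. The lung libraries varied among themselves by more than the fat libraries did, and the groups were far apart, with a difference of -3.46 ± 0.32 (adjusted p = 1.05e-05). Day-0 macrophages had a mean of 0.661 CPM and macrophages with mammary partners 82.4 CPM.

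Clec10a, Cd5l, Mrc1 and Selp were also higher with lung partners. Clec10a (chromosome 11, 70156197 to 70170834), a galactose-binding lectin, stood at 4.20, 5.50, 4.96 and 3.30 CPM in fat libraries 1 to 4 and at 19.9, 25.7, 30.1 and 22.7 CPM in lung libraries 1 to 4. All lung libraries were above all fat libraries, and the day-0 mean of 15.4 CPM lay between them. The difference was -2.45 ± 0.28 (adjusted p = 2.05e-05). Cd5l (chromosome 3, 87357881 to 87371073), a secreted scavenger protein that supports macrophage survival, stood at 33.98, 19.04, 22.4 and 21.4 CPM in fat libraries 1 to 4 and at 93.7, 91.1, 92.9 and 85.05 CPM in lung libraries 1 to 4. The lung libraries were nearly alike, fat library 1 was the highest of its group, and the difference was -1.90 ± 0.22 (adjusted p = 3.63e-05). Mrc1 (chromosome 2, 14229392 to 14332057), the mannose receptor, stood at 296, 360.3, 359 and 328 CPM in fat libraries 1 to 4 and at 707, 830.3, 746 and 711 CPM in lung libraries 1 to 4. The groups did not overlap, and the difference of -1.16 ± 0.16 (adjusted p = 0.000154) was smaller than that of Clec10a or Cd5l. Selp, the adhesion molecule P-selectin, stood at 4.59 ± 1.60 CPM with fat and 26.7 ± 6.08 CPM with lung partners (SD, n = 4 each; log2 difference -2.51 ± 0.28, adjusted p = 1.06e-05). Co-cultured lung fibroblasts held Selp at 43.2 CPM and fat fibroblasts at 13.6 CPM, and after subtraction of the fibroblast share its difference was -2.53. Selp shares exon bases with the predicted gene Gm16548. The remaining leading genes on this side were Rgl1, a Ral exchange factor (-1.88 ± 0.24, adjusted p = 5.78e-05), Slc28a2, a nucleoside transporter with a near-identical neighbour that makes its counts uncertain (-1.58 ± 0.33, adjusted p = 0.00976), and Pcp4l1 (-1.44 ± 0.20, adjusted p = 0.000152). Cnrip1, which encodes a cannabinoid receptor-interacting protein, and Adcy3, an adenylate cyclase, differed by -1.23 ± 0.18 and -1.20 ± 0.23 (adjusted p = 0.000264 and 0.00382), and share exon bases with Plek and Cenpo. Ednrb, Ccl8, Clec10a, Cd5l, Mrc1 and Selp kept adjusted p-values of at most 0.00134 in every fit without 1 library.

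Of 17 tested genes of perivascular and adipose-type resident macrophages, 5 were higher with lung and 0 with fat partners, with a median of -0.47. Beside this list and those below, the shares over all genes tested were 1.04% higher with lung and 2.06% higher with fat. In the unadjusted test 1 member passed 0.05 in favour of fat, and DESeq2 called 0 in that direction. The 5 were Ednrb, Ccl8, Mrc1 and Gas6, given above, and Fcna, the recognition molecule ficolin A of the lectin complement pathway (log2 difference -0.67 ± 0.16, adjusted p = 0.0168). Fcna was not called without fat library 3 or fat library 4 (adjusted p = 0.0801 and 0.0595), which left 4 members. Of 10 tested genes of alveolar macrophages, the resident macrophages of the lung's air spaces, 0 were higher with fat and 1 was higher with lung partners. In the unadjusted test 3 passed 0.05 in favour of fat, while DESeq2 called 0 of those, and 1 was called without lung library 1. The alveolar gene called higher with lung was Fabp4, a fatty acid-binding protein gene (log2 difference -0.95 ± 0.22, adjusted p = 0.0209). The adjusted p of Fabp4 was 0.0864 without fat library 1, 0.0811 without fat library 3, 0.0730 without fat library 4 and 0.0685 without lung library 1. Of 9 tested genes of serous-cavity macrophages, 2 were higher with fat, the fibroblast-rich matrix genes Fn1 and Thbs1, and 3 with lung, Selp, Cd5l and Lrg1. Fn1 differed by 1.31 ± 0.30 (adjusted p = 0.0215), and its adjusted p was 0.0595 without fat library 1, 0.0670 without fat library 2, 0.0575 without lung library 2, 0.0617 without lung library 3 and 0.0722 without lung library 4. Thbs1, which encodes a protein that activates latent TGF-beta, differed by 1.35 ± 0.15 (adjusted p = 1.53e-05), or by 0.36 after subtraction of the fibroblast share (adjusted p = 0.962). Lrg1, a secreted leucine-rich glycoprotein gene, differed by -1.19 ± 0.29 (adjusted p = 0.0324), and its adjusted p was 0.117 without fat library 3, 0.116 without fat library 4, 0.0698 without lung library 2, 0.109 without lung library 3 and 0.0832 without lung library 4.

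The promoter windows of 4 leading genes are shown because these genes carry the contrast between the groups: Cx3cr1 was high with fat partners, and Ednrb, Ccl8 and Cd5l were high with lung partners. They run from 250 bases before to 50 bases after the annotated start, are credited to RefSeq on GRCm38.p6, and are written 5′ to 3′ on the strand of the gene. Capitals mark matches, on either strand, to the TATA box TATAAA, the PU.1 type motif GAGGAAG, the SMAD-binding motif CAGACA or the AP-1 motif TGANTCA.
Cx3cr1, chr9:120068247-120068546, minus strand: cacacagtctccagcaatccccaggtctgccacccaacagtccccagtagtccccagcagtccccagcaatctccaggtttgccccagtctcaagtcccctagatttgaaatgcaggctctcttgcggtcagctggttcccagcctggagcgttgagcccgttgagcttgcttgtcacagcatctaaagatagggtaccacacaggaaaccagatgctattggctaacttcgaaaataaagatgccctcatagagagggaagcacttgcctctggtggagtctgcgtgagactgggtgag
Ednrb, chr14:103843652-103843951, minus strand: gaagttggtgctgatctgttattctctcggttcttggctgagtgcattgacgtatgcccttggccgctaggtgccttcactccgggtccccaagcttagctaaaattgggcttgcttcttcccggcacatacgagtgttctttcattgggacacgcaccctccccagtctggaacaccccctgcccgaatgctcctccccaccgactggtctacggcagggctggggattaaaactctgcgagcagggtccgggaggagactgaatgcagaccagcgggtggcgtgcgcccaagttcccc
Ccl8, chr11:82114935-82115234, plus strand: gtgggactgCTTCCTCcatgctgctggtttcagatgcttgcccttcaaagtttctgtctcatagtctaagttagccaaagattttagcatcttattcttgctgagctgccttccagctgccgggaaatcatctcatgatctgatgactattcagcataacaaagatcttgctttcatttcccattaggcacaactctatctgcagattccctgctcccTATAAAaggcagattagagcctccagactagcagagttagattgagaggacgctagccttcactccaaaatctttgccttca
Cd5l, chr3:87357631-87357930, plus strand: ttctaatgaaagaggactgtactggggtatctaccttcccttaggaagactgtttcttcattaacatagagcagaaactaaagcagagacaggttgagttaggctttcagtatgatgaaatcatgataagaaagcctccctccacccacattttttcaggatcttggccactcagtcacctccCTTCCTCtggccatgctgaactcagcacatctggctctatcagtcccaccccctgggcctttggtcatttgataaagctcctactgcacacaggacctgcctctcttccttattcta
The window of Ccl8, higher with lung partners, held a TATA box from base -32 to base -27 and a PU.1 type match on the opposite strand from base -241 to base -235, counted from the annotated start. The window of Cd5l held 1 PU.1 type match on the opposite strand, from base -67 to base -61. None of the 4 motifs was found in the windows of Cx3cr1 and Ednrb. Of 32851 windows of this length, 13.6% held TATAAA, 13.6% GAGGAAG, 21% CAGACA and 7.81% TGANTCA. Such a match describes letters in this window and not a bound site.

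Chemokine genes went both ways. Of 24 tested inflammatory cytokine and chemokine genes, 7 were higher with lung and 3 with fat partners, with a median of 0.04. On the lung side stood genes of CC chemokines. Of these, the monocyte-attracting Ccl7 and Ccl12 are encoded beside Ccl8 in a cluster on chromosome 11. Ccl6 lies further along the chromosome, at 83587882 to 83593087. Ccl12 (chromosome 11, 82101845 to 82103400), the mouse MCP-5 gene, stood at 24.8, 32.6, 25.7 and 24.5 CPM in fat libraries 1 to 4 and at 96.4, 36.96, 60.3 and 48.6 CPM in lung libraries 1 to 4. Lung library 1 was the highest and lung library 2 the lowest of its group, which did not reach down to the fat libraries, and the difference was -1.18 ± 0.25 (adjusted p = 0.00972). Ccl6, a CC chemokine gene of rodents, stood at 1333, 1348, 1009.7 and 807 CPM in fat libraries 1 to 4 and at 2912, 2652, 2489.7 and 2638 CPM in lung libraries 1 to 4. The groups were well apart, with a difference of -1.25 ± 0.23 (adjusted p = 0.00420). Ccl7, the MCP-3 gene, stood at 66.2, 90.8, 37.8 and 42.6 CPM in fat libraries 1 to 4 and at 314, 135, 148 and 117 CPM in lung libraries 1 to 4. Lung library 1 was far above the other 7, and the difference of -1.59 ± 0.38 (adjusted p = 0.0378) lost its call in 5 of the 8 fits without 1 library. Its adjusted p was 0.0931 without fat library 1, 0.125 without fat library 3, 0.121 without fat library 4, 0.0940 without lung library 1 and 0.0654 without lung library 3. Ccl2, the MCP-1 gene, was not called, at -0.99 ± 0.45 (adjusted p = 0.398).

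The other called chemokine genes on the lung side were Ccl4, Ccl9 and Cxcl12. Ccl4, the MIP-1 beta gene, was higher with lung partners (log2 difference -0.96 ± 0.22, adjusted p = 0.0190), and its adjusted p was 0.0661 without fat library 3, 0.0754 without fat library 4 and 0.0548 without lung library 1. Ccl9 was at -0.42 ± 0.11 (adjusted p = 0.0406) and kept its call only without fat library 2 among the 8 fits without 1 library, with adjusted p-values of 0.0658 to 0.149 without each of the other 7 libraries. The fibroblast-rich Cxcl12 was at -1.83 ± 0.40 (adjusted p = 0.0142), and its adjusted p was 0.0612 without fat library 1, 0.0539 without fat library 2, 0.0534 without fat library 4 and 0.0518 without lung library 3. Without fat library 4 the number of list members higher with lung was 3, and in the other fits without 1 library it was 4 to 7. After subtraction of the fibroblast share the number was 5. Ccl9 then had an adjusted p of 0.0564, and Cxcl12 was not tested. On the fat side, besides Trem1, Cxcl14, a chemokine of epithelia and stroma, stood at 538 ± 51.8 CPM with fat and 202 ± 36.6 CPM with lung partners (SD, n = 4 each; log2 difference 1.41 ± 0.29, adjusted p = 0.0115, or 0.0896 without fat library 2 and lung library 1). Cxcl16, a scavenger receptor and chemokine, was at 0.66 ± 0.15 (adjusted p = 0.0121), or 0.0512 without fat library 3. Il1b, the inflammatory cytokine, was at like levels, 105 ± 21.4 and 94.7 ± 39.2 CPM (SD, n = 4 each; adjusted p = 0.923).

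Genes of antigen presentation by MHC class II leaned to fat partners, and few passed the test. Of 10 tested members 3 were called, all higher with fat, and all 10 were positive, with a median of 1.11. H2-DMa, a chain of the peptide-loading chaperone H2-M, stood at 221, 265, 254 and 227 CPM in fat libraries 1 to 4 and at 146, 139, 125 and 137 CPM in lung libraries 1 to 4. The groups did not overlap and the difference was 0.82 ± 0.12 (adjusted p = 0.000264). H2-Aa, which encodes a chain of the presenting molecule itself, stood at 30.7, 25.7, 106 and 86.2 CPM in fat libraries 1 to 4 and at 14.999, 17.7, 34.6 and 26.7 CPM in lung libraries 1 to 4. Fat libraries 3 and 4 were high and fat libraries 1 and 2 overlapped with the lung libraries, so that the difference of 1.39 ± 0.63 was within the spread (adjusted p = 0.414). Cd74, the invariant chain, was at 0.64 ± 0.56 (adjusted p = 0.773). H2-DMb2 and the co-stimulatory gene Cd86 were called at means of at most 6.51 CPM (log2 differences 1.16 ± 0.28 and 1.47 ± 0.36, adjusted p = 0.0208 and 0.0222). The number of called members was 1 without fat library 2, fat library 3, lung library 1 or lung library 3. The adjusted p of H2-DMb2 was 0.0513 without fat library 2, 0.0607 without fat library 3, 0.0521 without lung library 1, 0.0646 without lung library 2 and 0.0789 without lung library 3. That of Cd86 was 0.0546 without fat library 2, 0.107 without fat library 3, 0.0526 without lung library 1, 0.0672 without lung library 3 and 0.0938 without lung library 4.

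Of 14 tested genes of alternative activation, 3 were higher with lung and 1 with fat partners, with a median of -0.05. The 3 were Clec10a and Mrc1, given above, and Il10, an anti-inflammatory cytokine gene, at 3.82, 3.90, 2.36 and 4.71 CPM in fat libraries 1 to 4 and at 7.19, 7.10, 9.94 and 14.8 CPM in lung libraries 1 to 4. The lung libraries of Il10 were all above the fat libraries, though at low counts, and the difference was -1.42 ± 0.30 (adjusted p = 0.00882, or 0.0576 without lung library 4). The 1 was Fn1. Arg1, the arginase of alternatively activated macrophages, stood at 459, 357, 135 and 162 CPM in fat libraries 1 to 4 and at 229.5, 103, 146 and 45.2 CPM in lung libraries 1 to 4. Its libraries varied several-fold within both groups, and the difference of 1.08 ± 0.77 did not pass the test (adjusted p = 0.689).

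Of 30 tested lineage transcription factors, 3 were higher with fat and 1 with lung partners. Mef2a, a factor of the microglia programme, stood at 228, 222, 203 and 204 CPM in fat libraries 1 to 4 and at 121, 132, 122 and 107 CPM in lung libraries 1 to 4. The groups did not overlap, and the difference was 0.82 ± 0.11 (adjusted p = 7.28e-05). Cebpa, a myeloid lineage factor, was higher with fat by 0.69 ± 0.14 (adjusted p = 0.00572) and Runx3, a Runt-domain factor, by 1.26 ± 0.27 (adjusted p = 0.0109). Tfec, a macrophage factor of the MiT family, was higher with lung, at 7.45, 11.01, 7.32 and 9.66 CPM in fat libraries 1 to 4 and at 21.4, 20.99, 15.8 and 18.7 CPM in lung libraries 1 to 4. Its lowest lung library was above its highest fat library, and the difference was -1.12 ± 0.17 (adjusted p = 0.000367). Spi1, which encodes the macrophage lineage factor PU.1, was at -0.12 ± 0.11 (adjusted p = 0.785).

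Receptors for clearance and vasoactive signals were split. Of 13 tested scavenger and efferocytosis receptors, 2 were higher with fat, Havcr2 and the TAM receptor gene Axl, and 2 with lung, Clec10a and Mrc1. Axl, a fibroblast-rich receptor for GAS6, stood at 87.2, 83.9, 172 and 144 CPM in fat libraries 1 to 4 and at 29.8, 48.2, 35.7 and 37.5 CPM in lung libraries 1 to 4. The groups did not overlap, and the difference was 1.69 ± 0.24 (adjusted p = 0.000425, or 0.000802 after subtraction of the fibroblast share). Of 21 tested receptors for endothelins and other vasoactive ligands, Ednrb was higher with lung and 3 were higher with fat. These were the lysophospholipid receptor genes Lpar1 (1.19 ± 0.28, adjusted p = 0.0180) and S1pr1 (0.57 ± 0.14, adjusted p = 0.0241) and the histamine receptor gene Hrh1 (1.00 ± 0.27, adjusted p = 0.0435). Lpar1 was fibroblast-rich, at 186 CPM in co-cultured fat and 37.3 CPM in co-cultured lung fibroblasts, and was not called after subtraction of the fibroblast share (0.82, adjusted p = 0.282). None of the 3 was called without fat library 3. The adjusted p of Lpar1 was 0.0571 without fat library 2, 0.0749 without fat library 3 and 0.0913 without lung library 4, that of S1pr1 0.0503 without fat library 1, 0.0685 without fat library 2, 0.0732 without fat library 3, 0.0929 without lung library 1 and 0.0956 without lung library 3, and that of Hrh1 0.108 without fat library 2, 0.125 without fat library 3, 0.137 without fat library 4, 0.147 without lung library 1, 0.0929 without lung library 2 and 0.112 without lung library 3.

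Of 30 tested genes of growth factors and matrix remodelling, 5 were higher with fat and 1 was higher with lung partners. Pdgfa, a platelet-derived growth factor chain that drives fibroblast growth, stood at 92.2, 82.6, 96.8 and 117 CPM in fat libraries 1 to 4 and at 39.9, 35.8, 40.5 and 46.7 CPM in lung libraries 1 to 4. Every fat library was well above every lung library, with a difference of 1.25 ± 0.14 (adjusted p = 1.09e-05). Its relative Pdgfb was at 0.07 ± 0.23 (adjusted p = 0.967). The matrix metalloproteinase genes Mmp2 and Mmp14 and the matrix gene Fn1 were fibroblast-rich. Mmp14 was at 1.10 ± 0.22 (adjusted p = 0.00572), or 0.0772 without fat library 2 and lung library 1. Mmp2 was at 2.13 ± 0.28 (adjusted p = 6.47e-05), and after subtraction of the fibroblast share too few counts remained for it to be tested. Mmp8, the neutrophil collagenase, was at 1.48 ± 0.37 (adjusted p = 0.0337). Among the 8 fits without 1 library it was called only without fat library 3, with adjusted p-values of 0.0533 to 0.119 without each of the other 7, and in the table it is one of only 2 of the 11 neutrophil markers. Plau, the urokinase protease, was higher with lung (log2 difference -0.93 ± 0.19, adjusted p = 0.00678). Without fat library 1, fat library 2, lung library 2, lung library 3 or lung library 4 the number higher with fat was 3, and with fibroblast-rich genes left out it was 2. The receptors for growth factors and chemokines had 3 of 27 called, all higher with fat, while 2 passed an unadjusted p of 0.05 and DESeq2 called 0 in favour of lung. They were Cx3cr1, Tgfbr1 and the interleukin-17 receptor chain Il17ra (0.66 ± 0.14, adjusted p = 0.0104).

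Metabolic and lysosomal genes differed by less. All 23 tested genes of sterol synthesis and uptake had a negative difference, with a median of -0.33, and 2 were called, both higher with lung. 1 of them was Ebp, a sterol isomerase gene (-0.41 ± 0.11, adjusted p = 0.0396). The adjusted p of Ebp was 0.0622 without fat library 1, 0.157 without fat library 3, 0.143 without fat library 4, 0.124 without lung library 1, 0.0778 without lung library 3 and 0.107 without lung library 4. The number of called members was 0 without fat library 1, fat library 3, lung library 3 or lung library 4. DESeq2 called 5 members, and 10 passed an unadjusted p of 0.05. Of 40 tested genes of the lysosome and its proton pump, 3 were higher with fat and 2 with lung partners. Among them, the cathepsin genes Ctsh and Ctse were higher with fat, by 0.59 ± 0.10 and 0.95 ± 0.21 (adjusted p = 0.00154 and 0.0119). Ctse had an adjusted p of 0.0567 without fat library 4 and 0.0559 without lung library 3. The cathepsin gene Ctsb and the pump subunit gene Atp6v0a1 were higher with lung (log2 differences -0.46 ± 0.10 and -0.85 ± 0.17, adjusted p = 0.0141 and 0.00569). Ctsb had an adjusted p of 0.0704 without fat library 3 and 0.0584 without fat library 4. Of 32 tested genes of glycolysis and hypoxia, Hk2, a hexokinase, was higher with fat (0.64 ± 0.14, adjusted p = 0.00804) and Ndrg1, a stress-response gene, higher with lung (-1.13 ± 0.17, adjusted p = 0.000275). Of 16 tested genes of lipid uptake and storage, Fabp4 and the galectin gene Lgals3 (-0.49 ± 0.12, adjusted p = 0.0236) were higher with lung, and 0 were higher with fat, where 2 of the 16 passed an unadjusted p of 0.05 and DESeq2 called 0 of them. The adjusted p of Lgals3 was 0.0669 without fat library 1, 0.101 without fat library 3, 0.0558 without fat library 4, 0.0734 without lung library 1 and 0.0847 without lung library 2. Of 18 tested genes of LXR targets and cholesterol efflux, Cd5l was higher with lung and Ch25h, an oxysterol-making hydroxylase, higher with fat (1.03 ± 0.23, adjusted p = 0.0168). The adjusted p of Ch25h was 0.0648 without fat library 1, 0.0593 without fat library 2, 0.0661 without lung library 3 and 0.0699 without lung library 4. Apoe, the most abundant uncalled member of that list, was at 0.30 ± 0.21 (adjusted p = 0.680).

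**Figure D5:**
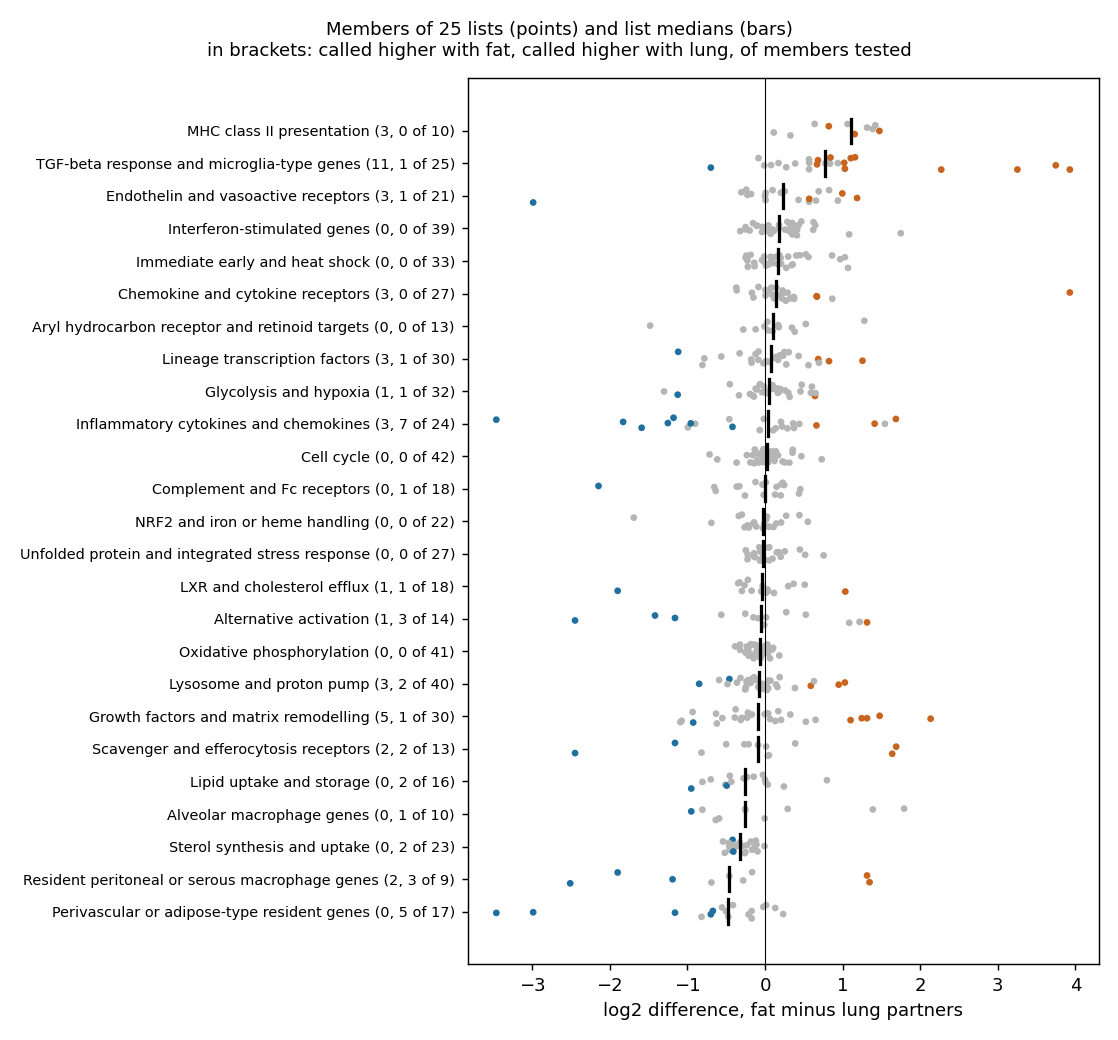
Log2 difference (fat minus lung partners) of each tested member (points) of 25 lists, with list medians (bars). Orange members are called higher with fat, blue members higher with lung and grey members are not called. The medians run from -0.47 for perivascular or adipose-type resident genes to 1.11 for MHC class II presentation.

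Several programmes had no called member in edgeR's test. Over all genes tested 3.1% were called, so lists of 13 to 42 genes would hold few, and 0 says little about a programme. Of 39 tested interferon-stimulated genes 0 were called, 6 passed an unadjusted p of 0.05, all higher with fat, and DESeq2 called 2. Without lung library 1, and without both it and fat library 2, 3 members were called higher with fat, and without fat library 2 alone 1 was. Ly6e, a member in which lung library 1 stood apart, was at 0.47 ± 0.18 (adjusted p = 0.242), or 0.70 (adjusted p = 0.0156) without that library. Of 33 immediate early and heat shock genes 0 were called, 8 passed the unadjusted p and DESeq2 called 1. Of 41 oxidative phosphorylation genes and 42 cell-cycle genes 0 were called in each, 2 passed the unadjusted p in each and DESeq2 called 0. Of 27 genes of the unfolded protein and integrated stress response 0 were called, 1 passed the unadjusted p and DESeq2 called 0. Of 22 genes of the NRF2 response and of iron and heme handling 0 were called, 4 passed the unadjusted p and DESeq2 called 1. Of 13 aryl hydrocarbon receptor and retinoid target genes 0 were called, 2 passed the unadjusted p and DESeq2 called 0. In fits without 1 library, 1 member was called without lung library 2 among cell-cycle genes, without fat library 1 or fat library 2 in the unfolded protein list, without lung library 1 or lung library 2 in the NRF2 list and without fat library 4 in the aryl hydrocarbon receptor list.

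Summed smooth muscle markers were higher with fat partners in the macrophage libraries and in the fibroblasts themselves, with 1 called marker as an exception. Smooth muscle and pericyte markers (6 of 9 in the table) summed to 99.4 to 158 CPM in macrophage libraries with fat and 24.8 to 36.6 CPM with lung partners, and 5 of the 6 were higher with fat. In the co-cultured fibroblasts themselves all 9 markers summed to 4813 to 6175 CPM in fat and 1159 to 1806 CPM in lung. The exception was Cspg4, 1 of the 5, with lower mean levels in fat than in lung fibroblasts (5.62 and 9.15 CPM). Cspg4 was not fibroblast-rich, and macrophages held it at 11.8 CPM at day 0, 13.2 CPM with fat and 2.98 CPM with lung partners. Among fibroblast-rich genes that reached 20 CPM in the higher group, the largest differences with fat were those of Cck, the peptide hormone cholecystokinin (4.08 ± 0.37, adjusted p = 9.72e-07), Htra3, a secreted serine protease (2.95 ± 0.24, adjusted p = 2.28e-07), and Des, the muscle filament desmin (2.94 ± 0.25, adjusted p = 4.44e-07). Co-cultured fat fibroblasts held Cck at 494 CPM and Des at 1479 CPM, and lung fibroblasts at 20.3 and 278 CPM. With lung partners the fibroblast-rich metallothionein gene Mt2, which binds metal ions, was higher (log2 difference -1.15 ± 0.21, adjusted p = 0.00420). Of 18 tested complement and Fc receptor genes, C4b was the only one called, and 1 more was called higher with fat without fat library 2. C4b, a complement component gene, was higher with lung partners (log2 difference -2.15 ± 0.27, adjusted p = 4.61e-05), with 576 CPM in lung and 53.4 CPM in fat fibroblasts. The contribution of fibroblast RNA to these genes was tested only by subtraction of the estimated share. After it the smooth muscle markers Tagln (1.07, adjusted p = 0.179) and Cnn1 (1.21, adjusted p = 0.0752) lost their calls, and Des was not tested. Cck, Htra3, Mt2 and C4b stayed called. The share subtracted is the median of 12 markers in each library, and single markers spread widely around it. They ran from 0.83% to 5.34% in fat library 3 and from -0.40% to 2.76% in lung library 4. Cck itself varied strongly among the co-cultured fat fibroblast libraries (SD 481 CPM, n = 3). How well the median share holds for a single gene was not tested. Over all genes 266 were called after subtraction, of which 260 were among the 319. With fibroblast-rich genes left out of the fit 230 were called.

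Ligands of the receptors above are given as levels in the partner fibroblasts, without a test. Tgfb1, the most studied TGF-beta ligand, had a mean of 110 ± 13.6 CPM in co-cultured fat and 44.0 ± 7.34 CPM in co-cultured lung fibroblasts (SD, n = 3 each). Tgfb3 stood at 106 ± 10.1 and 197 ± 44.4 CPM and Tgfb2 at 47.1 ± 7.20 and 62.6 ± 4.59 CPM in the same order, so that the mean of Tgfb1 was higher in fat and the means of the other two were higher in lung fibroblasts. Edn1, the precursor of the EDNRB ligand endothelin-1, stood at 47.1 ± 12.5 CPM in fat and 117 ± 40.6 CPM in lung fibroblasts. Cx3cl1, which encodes fractalkine, stood at 55.9 ± 20.2 and 36.4 ± 2.92 CPM. Csf1, the growth factor on which macrophages depend, was at 802 ± 227 and 780 ± 67.6 CPM, and the macrophages' Csf1r, its receptor, differed by 0.23 ± 0.15 (adjusted p = 0.630). Whether any of these ligands bears on the macrophage genes was not tested.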

How the data were processed

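Bulk 3′ end RNA sequencing was analysed for macrophages sorted after co-culture. The deposited tables hold read counts per gene, made by the authors with bcl2fastq, STAR 2.4.2a and HTSeq on build mm10, per the submitters' processing notes. The annotation is not given in the sources used here, nor is whether strand or molecular identifiers were used. Counts of 3′ ends do not scale with transcript length.

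Of 11965 genes in the table, 10295 passed a filter on low counts (edgeR's filterByExpr, minimum count 10). They were fitted with edgeR 4.0.16 in R 4.3.3 (quasi-likelihood F-test, robust, TMM scaling) over the 16 macrophage libraries of day 0 and of the fat, lung and mammary co-cultures, which share 1 estimate of the spread. The contrast was fat minus lung partners, with Benjamini-Hochberg adjustment over all genes tested, and every adjusted p comes from this test unless another tool is named. The SE of a log2 difference is its size divided by the square root of F. The procedure was tested on simulated data. DESeq2 1.42.0, other scalings and filters, a threshold of 1.5-fold, subtraction of fibroblast RNA and leaving out libraries were alternatives. Leaving out fat library 2 with lung library 1 was chosen after seeing the data.

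Genes were named by a rule: the 12 largest differences in each direction among called genes with at least 20 CPM in the higher group, no overlap between the groups and no fibroblast-rich level, the 3 largest fibroblast-rich ones, and up to 3 called members and the most abundant uncalled member of each of 25 lists. Further list members were named after their values were seen. Some members of the lists are counted but not reported by name here. The members and lists were chosen with earlier results of these data known. Genes with near-identical copies or overlapping exons are uncertain. No 2 libraries of a group agreed within sampling noise. Same-numbered fat and lung libraries did not deviate together, so they were not paired. Coordinates come from GENCODE vM21 and promoters from RefSeq.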

Additional observations from a re-analysis of the deposited data

Results flagged for a closer look

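In 15 of 264 groups of 4 libraries examined, 1 library lay far from the other 3, by a gap to its nearest neighbour above Dixon's critical share of the group's range. Chance alone sets apart a library in about 1 in 20 groups. Lung library 1 accounted for 5 of the 15. It held the chemokine genes Ccl2 at 928 CPM, against 399 to 472 CPM in the other lung libraries, Ccl3 at 385 CPM, against 181 to 215 CPM, and Ccl7 at 314 CPM, against 117 to 148 CPM. In the same library the interferon-stimulated Ly6e stood at 1388 CPM, against 770.0 to 858 CPM, and the lipid carrier gene Apoe was low at 22469.9 CPM, against 29126.5 to 30085.6 CPM.

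Fat library 2 was set apart for 4 genes: Ccl12 at 32.6 CPM against 24.5 to 25.7 CPM, Ednrb at 61.5 CPM against 46.9 to 49.1 CPM, the ferritin gene Fth1 at 19371 CPM against 17734 to 17819 CPM and the acute phase gene Saa3 at 625 CPM against 346 to 379 CPM. Of these, Ccl12 and Ednrb were higher than in the other fat libraries and still under every lung library. The prostaglandin synthase gene Ptgs1 was low in fat library 1, at 364 CPM against 430.2 to 438 CPM. In lung library 2, Gas6 was low at 2642 CPM against 2751 to 2760 CPM, and Tle1 at 2.66 CPM against 4.87 to 4.97 CPM. In lung library 3 the ATP synthase gene Atp5b was low at 1044 CPM against 1260 to 1281 CPM. In lung library 4 Smad3 was low at 13.3 CPM against 16.04 to 16.6 CPM, and Smad7 was high at 23.5 CPM against 13.1 to 14.4 CPM.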

How the results depend on the processing

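Against 319 called genes (212 higher with fat, 107 with lung), DESeq2 called 391, of which 313 were shared. RLE scaling called 324, library totals without TMM 337, no filter on low counts 328 and the 8 libraries alone 409. With library totals 71.5% of the calls were higher with fat, against 66.5%. A test against a 1.5-fold difference called 75, with 53 higher with fat and 22 with lung. Leaving out 1 library gave 226 to 297 called genes, 153 to 193 higher with fat and 69 to 106 with lung. Of 132 genes followed through every alternative, 92 were called and 65 of them remained called in all 8 fits without 1 library. None of the 92 changed direction under any alternative. With the replicate number as a replicate block, 354 genes were called over the 16 libraries and 366 over the 8. Same-numbered fat and lung libraries correlated at -0.04, -0.21, 0.23 and 0.20 in their deviations, so the numbers do not pair them. With 3 counts at 0.504 to 0.887 CPM, depth limits genes of a few CPM, among them Cd86 and Il10. No macrophages kept 7 days without fibroblasts were analysed here, so a gain with one partner and a loss with the other cannot be told apart.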

Other observations

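Except for Ltc4s, the genes that follow lie outside the lists above. All were picked after their values were seen, so they stand for themselves and not for a pathway. Alox5, which makes leukotrienes, was higher with fat partners by 1.00 ± 0.11 (adjusted p = 1.72e-05). Ptgs1, a prostaglandin synthase, was higher with fat by 0.91 ± 0.16 (adjusted p = 0.00149), and Lpcat2, which makes platelet-activating factor, by 0.97 ± 0.14 (adjusted p = 0.000291). Gpr84, a receptor for medium-chain fatty acids, was higher with fat by 1.40 ± 0.19 (adjusted p = 0.000146), and Siglec1, the sialic acid receptor CD169, by 0.89 ± 0.11 (adjusted p = 5.78e-05). These 5 were called in every fit without 1 library. With lung partners the hyaluronidase gene Hyal1 was higher, with a difference of -1.02 ± 0.11 (adjusted p = 7.24e-06), as was Naaa, an acid amidase that breaks down lipid amides, with a difference of -0.71 ± 0.13 (adjusted p = 0.00227). Hyal1 shares exon bases with Hyal3 and Naa80, so its counts are uncertain. The leukotriene receptor gene Ltb4r1 was also higher with lung, with a difference of -1.01 ± 0.26 (adjusted p = 0.0357), and its adjusted p was 0.0918 without fat library 1, 0.124 without fat library 2, 0.0766 without fat library 3, 0.0583 without fat library 4, 0.0962 without lung library 1, 0.121 without lung library 2 and 0.0996 without lung library 3. Ltc4s, a leukotriene synthase gene of the microglia-type list, was not called, at 0.57 ± 0.17 (adjusted p = 0.0778).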
